A study of Oryctolagus cuniculus with 12 samples.

Results

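The genes described here encode 4 fibril-forming or network collagen chains, COL1A2, COL2A1, COL5A2 and COL8A1, and the small leucine-rich proteoglycans decorin (DCN) and lumican (LUM). Members were all probes of an Agilent 1-colour rabbit array whose RefSeq accession carried one of these symbols. This gave 30 of 43603 probes, and 6 of the 1264 gene symbols that could be matched to a probe. The data came from the thoracic aorta of 12 male New Zealand white rabbits in 3 groups of 4, with 1 array per rabbit. In the CoA group (coarctation of the aorta), a permanent silk suture was tied around the proximal descending thoracic aorta at about 10 weeks of age to impose a 20 mmHg blood pressure gradient. The Corrected group had the same operation with degradable Vicryl suture, so that the narrowing was later relieved, with a modest residual narrowing. The Control rabbits were not operated on, so that surgery itself and the coarctation cannot be told apart in comparisons with this group. RNA was taken at 32 weeks from a ring of about 4 mm upstream of the coarctation, the segment exposed to high pressure in CoA. The ring is bulk tissue with all layers of the wall and whatever adhered to it, and fewer cells of a type and less RNA per cell cannot be told apart.

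Fibrillar collagens are made as procollagen chains that wind into triple helices and, after secretion, assemble into the cross-linked fibrils that bear load in the aortic media and adventitia. COL1A2 is a chain of type I collagen, the main fibrillar collagen of the adventitia, and COL5A2 is a chain of type V collagen, which co-assembles with type I and limits fibril diameter. COL8A1 forms short-chain networks made by endothelial and smooth muscle cells, and COL2A1 is the collagen of cartilage. Decorin and lumican are secreted proteins with leucine-rich repeats that bind the surface of collagen fibrils and regulate fibril growth and spacing, and decorin also binds TGF-beta. DCN and LUM lie next to each other in the rabbit gene table. No sequences are shown, because none of the tables used here held them.

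Signals are given as the log2 of the scanner software's processed intensity, quantile normalized over the 12 arrays, so that a difference of 1 is a 2-fold change. Probes had to be detected on 8 or more of the 12 arrays to be tested, and 28 of the 30 member probes were. The exceptions were COL1A2 A_04_P033287, which was well above background on 1 array, and COL2A1 A_04_P016693, which was so on 7. The array of Corrected replicate 3 was left out of the tests, except in alternatives that are named as using all 12 arrays. Before normalization its median intensity was 8.85, against 20.4 to 64.0 on the other 11 arrays. Of these 11, CoA replicate 2 and Corrected replicate 4 had the lowest medians (20.4 and 28.1) and stood apart from the rest. The spread of the log2 difference between arrays was taken as a scaled median absolute deviation, over brighter probes detected on all 12 arrays. Its median was 0.892 for CoA replicate 2 and 0.737 for Corrected replicate 4, and 0.55 over pairs of the other 9. Control replicates 3 and 4 were the most alike pair, with a spread of 0.144. All 4 CoA arrays were scanned together and with no other array, so that an effect of the scan and one of CoA cannot be told apart. Every CoA array also had a lower percentage of spots flagged well above background (55.85% to 69.67%) than any Control array (69.71% to 77.73%). The nearest arrays of these groups differed little. Corrected arrays, replicate 3 included, ran from 45.56% to 68.45%. Whether this bears on the differences between CoA and Control was not tested. Of the smooth muscle genes, 5 of the 5 with a probe (MYH11, ACTA2, CALD1, DES and TPM2) were detected. So were 6 of the 6 skeletal muscle genes with a probe, so that detection alone cannot check the tissue label.

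For CoA vs Control, 1 of the 28 member probes exceeded a 2-fold difference at an unadjusted p below 0.05 (the 2-fold criterion), and it was a LUM probe that was higher in CoA. Over all 27287 probes tested, 8.81% passed this criterion, 3.59% higher and 5.23% lower. Scaling to the 75th percentile of each array turned that split around, from 979 higher and 1426 lower probes to 1529 higher and 1222 lower. CoA and Control did not overlap for 2 of the 28 member probes, both of LUM and both higher in CoA, against 10.2% of all probes, or 6.87% counting only those higher in CoA. An unadjusted p under 0.05 was reached by the same 2 member probes, against 14.2% of all probes, or 7.55% counting only higher ones. After Benjamini-Hochberg adjustment in limma, 0 of the 28 member probes and 0 of the 27287 probes passed 0.05, and the lowest adjusted p among the members was 0.239. The limma test without moderated variances, which was run on the 2 groups compared alone, also passed 0 probes. The log2 fold changes of the members ran from -0.94 to 1.18, with 14 above and 14 below 0. Of all probes, 54.5% were above 0, with a median of 0.06.

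**Figure D1:**
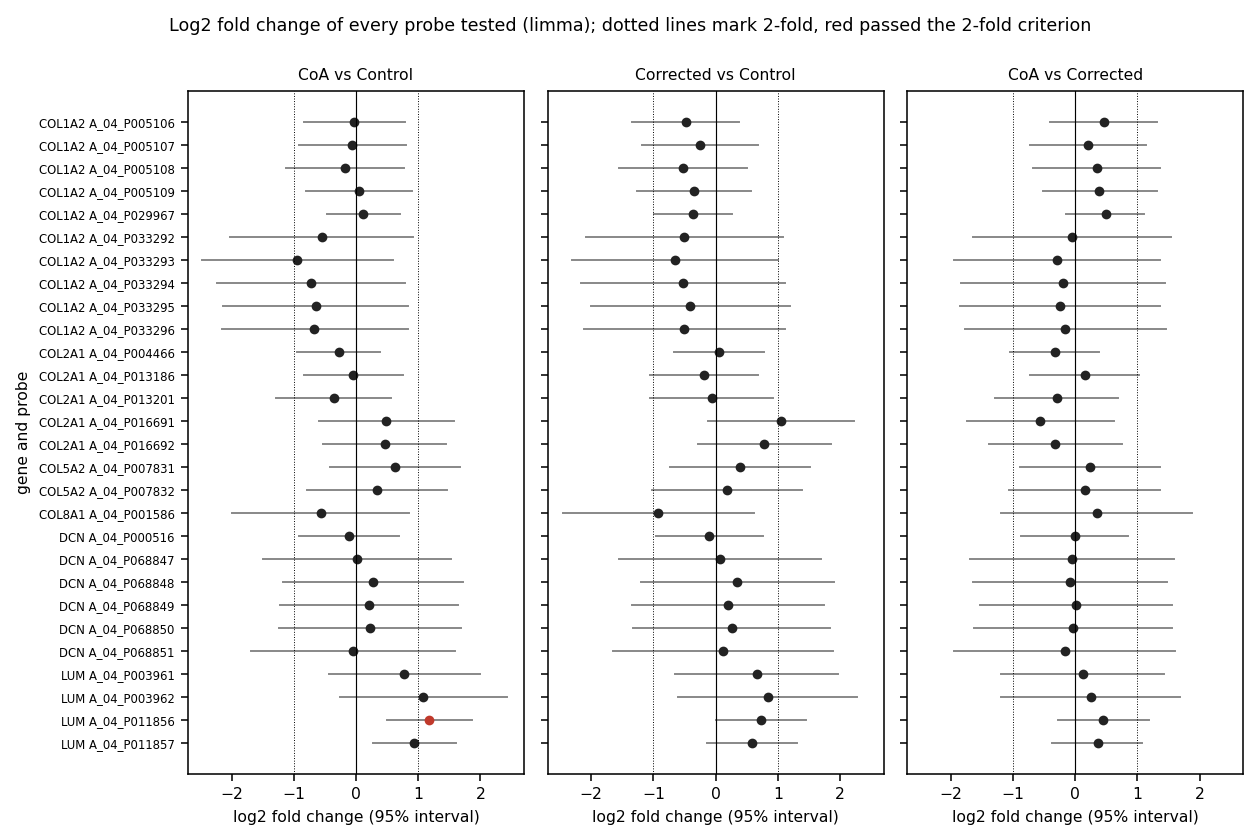
Log2 fold change (x axis, with 95% intervals from limma) of the 28 probes tested (y axis, by gene and probe) in each of the 3 comparisons between groups. The dotted lines mark a 2-fold change, and LUM A_04_P011856 in CoA vs Control, at 1.18, is the only point in red, which marks an unadjusted p under 0.05 with over 2-fold change.

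LUM was the only member with a probe past the criterion, and all 4 of its probes had a higher mean in CoA than in Control, by 0.77 to 1.18 on the log2 scale. These probes measure the same gene on the same arrays and are not replicates. For A_04_P011857, the brightest LUM probe, the Control arrays read 15.23, 15.54, 15.03 and 15.09 in replicates 1 to 4. The CoA arrays read 16.19, 16.10, 15.87 and 16.49, and Corrected replicates 1, 2 and 4 read 15.68, 16.54 and 15.21. Every CoA array was above every Control array, while the Corrected arrays spanned from inside the Control range to above all CoA arrays. The mean was 15.22 ± 0.23 in Control (SD, n = 4), 16.16 ± 0.26 in CoA (SD, n = 4) and 15.81 ± 0.68 in Corrected (SD, n = 3). CoA was 1.92-fold higher than Control (log2 FC 0.94, 95% interval 0.27 to 1.61, limma adjusted p = 0.271). The exact two-sided permutation test gave p = 0.0286, the smallest that 4 against 4 arrays allow, which became 0.514 after adjustment over the 18 such tests (6 genes in 3 comparisons).

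The other LUM probe of this kind, A_04_P011856, read 14.81, 15.07, 14.44 and 14.65 in Control. It read 16.02, 15.76, 15.60 and 16.32 in CoA, and 15.26, 16.19 and 14.96 in Corrected replicates 1, 2 and 4. Again the CoA and Control arrays did not overlap. CoA was 2.27-fold higher (log2 FC 1.18, SE 0.31, 95% interval 0.50 to 1.86), with an unadjusted p of 0.00278 and a limma adjusted p of 0.239. This probe kept its direction and its pass under all 25 alternatives tried, with a log2 FC from 1.05 to 1.80 and an adjusted p from 0.000282 to 0.615. Not all of these could move the difference: other detection filters and leaving out a Corrected array left it at 1.18. Scan day as a block was the same fit as leaving out Control replicate 3 (1.08). The largest log2 FC came from scaling to the 75th percentile. The adjusted p was under 0.05 with all 12 arrays and array weights (0.000282) and with arrays scanned together as a random block (0.0467). Of all 27287 probes, 11050 and 869 passed adjustment in these fits, against 0 in the main fit. The CoA arrays were scanned with no other array, so the random block cannot part the scan from CoA.

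The remaining LUM probes, A_04_P003961 and A_04_P003962, read lower on CoA replicate 2 than on the other CoA arrays. A_04_P003962 read 13.53, 13.75, 13.04 and 13.12 in Control and 14.82, 13.20, 14.41 and 15.34 in CoA. In Corrected replicates 1, 2 and 4 it read 14.27, 15.66 and 12.66. CoA replicates 1, 3 and 4 lay above every Control array and CoA replicate 2 lay within the Control range, and the CoA mean was 1.08 higher (SE 0.61, 95% interval -0.25 to 2.42, limma adjusted p = 0.428). For A_04_P003961 the difference was 0.77 (95% interval -0.44 to 1.99), and there too only CoA replicate 2, at 13.69, lay within the Control range of 13.59 to 14.21. Without CoA replicate 2 and Corrected replicate 4, which was tried after the values were seen, both these probes passed the criterion in CoA vs Control as well.

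**Figure D2:**
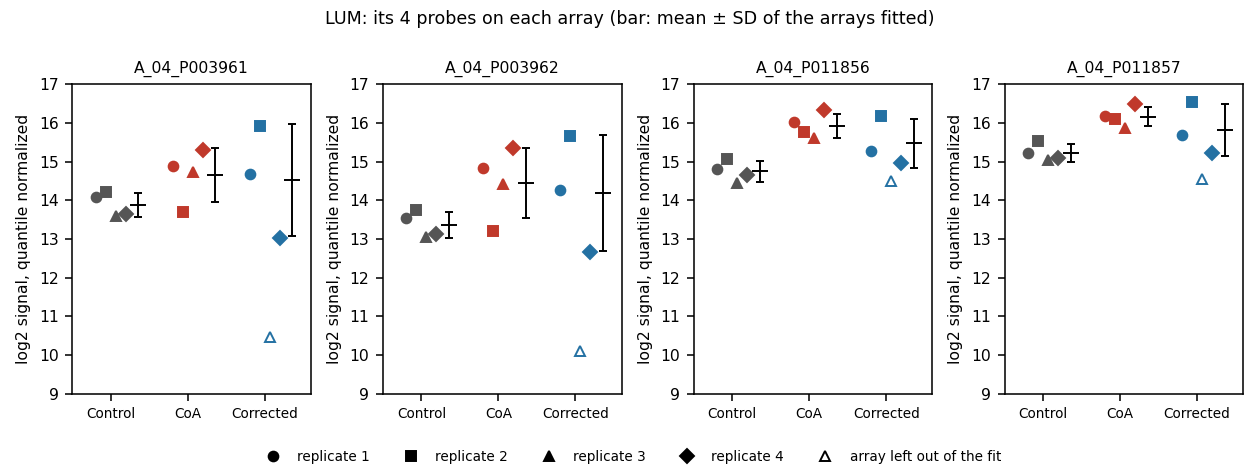
Quantile normalized log2 signal (y axis) of the 4 LUM probes on each array of the 3 groups (x axis), with the mean ± SD of the arrays fitted as a bar, and Corrected replicate 3 as an open symbol. For A_04_P011856 and A_04_P011857 all CoA points lie above all Control points, while for A_04_P003961 and A_04_P003962 CoA replicate 2 lies among the Control points.

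In Corrected vs Control, the 4 LUM probes had log2 FC of 0.58 to 0.84, and 0 of them passed the criterion. With arrays scanned together as a block, the difference was 1.35 for A_04_P011856 and 1.25 for A_04_P011857. Only 1 scan held arrays of both groups, so this fit compared Corrected replicate 2 alone with Control replicates 1, 2 and 4. Without the block, A_04_P011856 came closest to the criterion, at 1.66-fold (log2 FC 0.73, SE 0.33, unadjusted p = 0.0502, limma adjusted p = 0.597). Corrected replicate 2 was above every Control array for all 4 probes, and Corrected replicate 1 was so too. Corrected replicate 4 was below the Control range for A_04_P003961 (13.02) and A_04_P003962 (12.66), and within it for the other pair. CoA and Corrected were not shown to differ for LUM: the difference was 0.12 to 0.45, and for A_04_P011856 it was 0.45 (95% interval -0.28 to 1.18, limma adjusted p = 1). For this probe it was 0.81 without Corrected replicate 2 and 0.19 without Corrected replicate 4, and for A_04_P011857 it was 0.72 and 0.06, against 0.36 with all 3. Both comparisons with Control share the same Control arrays.

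DCN, the other proteoglycan, showed no difference between groups that exceeded the spread between rabbits. Its brightest probe, A_04_P000516, read 17.29, 16.53, 17.36 and 17.07 in Control and 16.69, 17.22, 16.81 and 17.09 in CoA. In Corrected replicates 1, 2 and 4 it read 17.35, 17.58 and 15.97. The 3 groups overlapped, with the highest and the lowest of the 11 arrays both in Corrected. The CoA mean differed from Control by -0.11 (95% interval -0.91 to 0.69), and with scaling to the 75th percentile the difference turned to 0.81. Corrected differed from Control by -0.10 (95% interval -0.95 to 0.76), which turned to 0.23 with that scaling.

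The other 5 DCN probes, A_04_P068847 to A_04_P068851, had log2 FC from -0.05 to 0.28 in CoA vs Control and from 0.07 to 0.35 in Corrected vs Control. A_04_P068849, for example, read 15.28, 14.93, 15.06 and 15.25 in Control and 15.84, 14.04, 15.53 and 15.96 in CoA. In Corrected replicates 1, 2 and 4 it read 16.06, 16.60 and 13.34. CoA replicates 1, 3 and 4 and Corrected replicates 1 and 2 were thus above every Control array, and CoA replicate 2 and Corrected replicate 4 were below every Control array. The 95% interval of the CoA vs Control difference was -1.22 to 1.64. Without Corrected replicate 4, A_04_P068847 to A_04_P068850 of DCN and A_04_P003961 and A_04_P003962 of LUM passed the criterion as higher in Corrected vs Control, 6 member probes against 0 with that array.

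COL1A2 had no probe past the criterion in any comparison of the quantile normalized values. A_04_P005106, its brightest probe, read 17.41, 17.14, 16.60 and 16.53 in Control and 16.98, 16.60, 16.97 and 17.02 in CoA. In Corrected replicates 1, 2 and 4 it read 16.88, 16.99 and 15.44. Corrected replicate 4 was low and the other 10 arrays lay within 1 log2 unit of each other. CoA differed from Control by -0.03 (95% interval -0.83 to 0.78), which turned to 0.86 with scaling to the 75th percentile, and Corrected by -0.48 (95% interval -1.35 to 0.38). All 10 tested COL1A2 probes had a lower mean in Corrected than in Control (log2 FC -0.65 to -0.25), and 8 of the 10 had a lower mean in CoA. None of these differences had an unadjusted p under 0.05, and the lowest was 0.205. With scaling to the 75th percentile, A_04_P005106 read 16.92 to 17.71 in CoA, above all of Control (16.12 to 16.63) and Corrected (15.79 to 16.43). It then passed the criterion in CoA vs Corrected (log2 FC 1.00, against 0.46 with quantile normalization), with an adjusted p of 0.999 in limma. A_04_P029967 was the only COL1A2 probe whose groups did not overlap in any comparison: it read 16.85, 16.67, 16.74 and 16.71 in CoA and 16.55, 16.61 and 15.60 in Corrected, a difference of 0.49 (95% interval -0.14 to 1.11). Its exact p was 0.0571, the smallest that 4 against 3 arrays allow.

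The probes of COL1A2, DCN and LUM fell into separate series that differed in how they varied from array to array, a pattern noticed after the values were seen and given as a description. Correlations over the 11 arrays between probes of the same gene were 0.99 to 1.00 within A_04_P033292 to A_04_P033296 of COL1A2 and 0.81 to 0.98 within its other 5 tested probes, but 0.53 to 0.86 between these series. For DCN they were 0.97 to 1.00 within A_04_P068847 to A_04_P068851 and 0.57 to 0.67 between these and A_04_P000516. For LUM they were 0.99 within either pair and 0.78 to 0.86 between the pairs. The points share arrays and are not independent.

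To set the series side by side, each probe was expressed as its deviation from its own Control mean. On CoA replicate 2, A_04_P033292 to A_04_P033296 deviated by -2.11 on average, while the other COL1A2 probes deviated by -0.47. On that array A_04_P068847 to A_04_P068851 of DCN deviated by -1.18 and A_04_P000516 by 0.16, and A_04_P003961 and A_04_P003962 of LUM by -0.17 against 0.94 for the other LUM pair. The gap between series was thus -1.64, -1.34 and -1.12 for COL1A2, DCN and LUM, in the same direction for all 3 genes. On Corrected replicate 4 the gaps were -0.84, -0.81 and -0.88, and on Corrected replicate 3 they were -2.67, -2.78 and -2.89. These are the 3 arrays with the lowest median intensity before normalization, and the part of array quality in these values was not tested. Of the other 9 arrays, Control replicate 3 had gaps below 0 for all 3 genes too, at -0.15, -0.28 and -0.06. Control replicate 4, whose median intensity of 29.7 was close to the 28.1 of Corrected replicate 4, had gaps of -0.12, 0.14 and -0.13. Over these 9 arrays the gap ran from -0.69 to 0.96 for COL1A2 and from -0.13 to 0.79 for LUM, and for DCN it was between -0.28 and 0.97 on all but Corrected replicate 2, where it was higher.

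**Figure D3:**
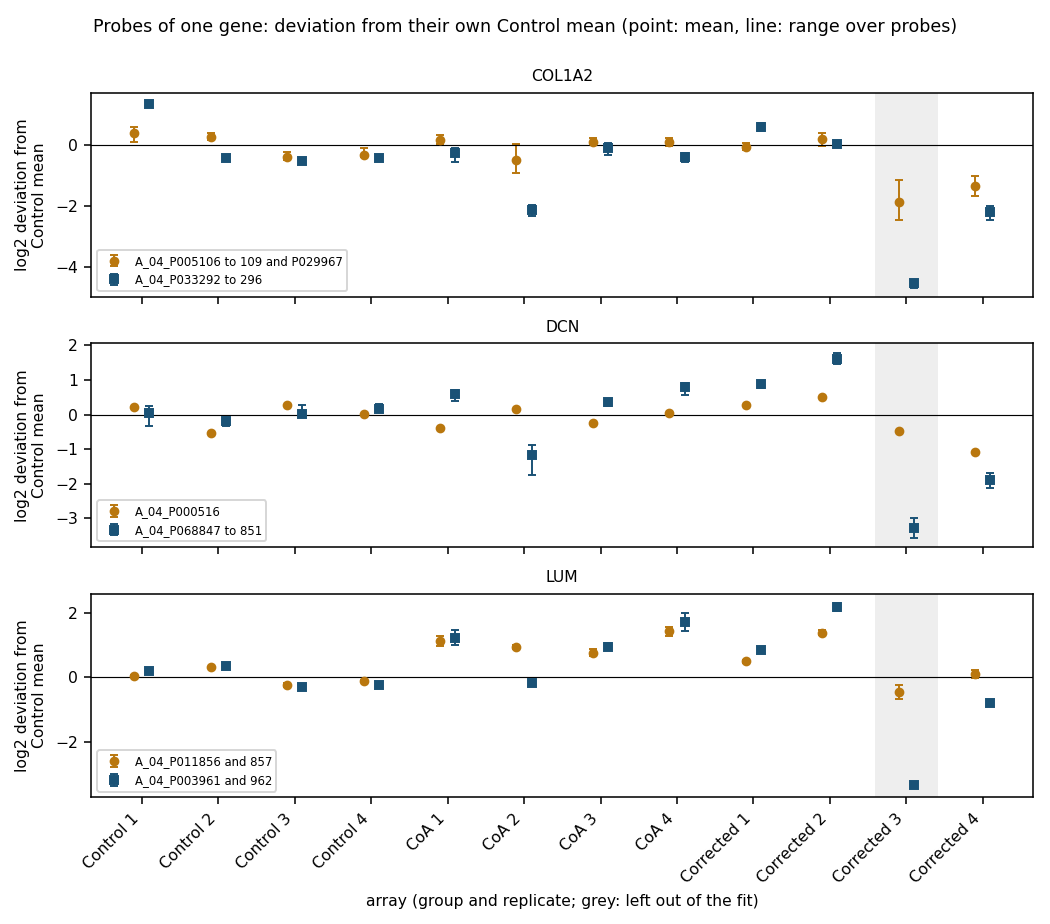
Deviation of the log2 signal from each probe's own Control mean (y axis) on the 12 arrays (x axis) for the separate probe series of COL1A2, DCN and LUM; points are means over the probes of a series and lines their range. The series part on CoA replicate 2, Corrected replicate 3 (grey, not fitted) and Corrected replicate 4, where the blue squares lie below the ochre circles in all 3 genes.

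COL5A2 differed between groups by less than the spread between rabbits. A_04_P007831 read 11.47, 13.27, 11.81 and 11.75 in Control and 13.23, 11.98, 12.81 and 12.79 in CoA. In Corrected replicates 1, 2 and 4 it read 11.78, 13.40 and 12.23. CoA replicates 1, 3 and 4 lay above 3 of the 4 Control arrays, and Control replicate 2 lay above every CoA array. The CoA mean was 0.63 higher (95% interval -0.42 to 1.67, limma adjusted p = 0.55) and the Corrected mean 0.40 higher (95% interval -0.73 to 1.52). Its other probe, A_04_P007832, had differences of 0.34 and 0.18 and followed the first closely, with r = 0.98 over the 11 arrays. Without Control replicate 2, A_04_P007831 passed the criterion in CoA vs Control, with a log2 FC of 1.03.

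COL8A1 had a single probe, A_04_P001586, so that no agreement between probes could be checked. It read 12.46, 11.91, 12.76 and 12.92 in Control and 12.96, 11.77, 12.50 and 10.56 in CoA. In Corrected replicates 1, 2 and 4 it read 13.21, 10.20 and 11.39. The Control arrays were close together, while CoA replicates 2 and 4 and Corrected replicates 2 and 4 were below all of them. The mean was 12.51 ± 0.44 in Control (SD, n = 4), 11.95 ± 1.05 in CoA (SD, n = 4) and 11.60 ± 1.52 in Corrected (SD, n = 3). Neither difference from Control passed the test, at -0.57 for CoA (95% interval -1.99 to 0.85) and -0.92 for Corrected (95% interval -2.45 to 0.62, limma adjusted p = 0.762). In Corrected vs Control the difference passed the criterion at -1.72 without Corrected replicate 1 and was -0.21 without Corrected replicate 2. It was -2.24 with arrays scanned together as a block, where Corrected replicate 2 alone stood for its group. In CoA vs Control it ran from -0.91 without CoA replicate 1 to -0.11 without CoA replicate 4.

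**Figure D4:**
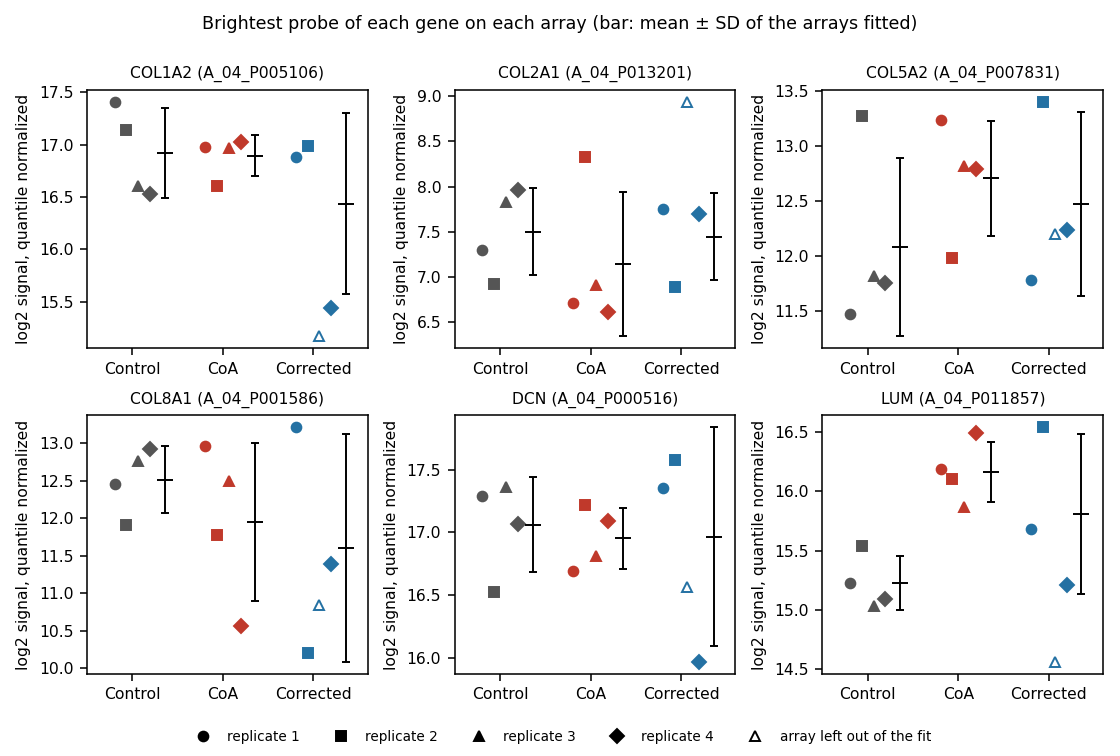
Quantile normalized log2 signal (y axis, scaled for each gene) of the brightest probe of each gene on each array of the 3 groups (x axis), with the mean ± SD of the arrays fitted as a bar and Corrected replicate 3 as an open symbol. For LUM all CoA points lie above all Control points, and for the other 5 genes the groups overlap.

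COL2A1, the cartilage collagen, was measured near the background by most of its probes. A_04_P013201, its brightest probe, was well above background on all 12 arrays and read 7.30, 6.92, 7.83 and 7.96 in Control. It read 6.72, 8.33, 6.91 and 6.62 in CoA, and 7.75, 6.89 and 7.70 in Corrected replicates 1, 2 and 4. CoA replicate 2 was the highest of the 11 arrays and the other 3 CoA arrays were below every Control array. The CoA mean differed from Control by -0.36 (95% interval -1.28 to 0.56, limma adjusted p = 0.711). Without CoA replicate 2 the difference was -0.75. The 5 tested probes of COL2A1 had little in common across arrays, with correlations from -0.09 to 0.78 and a median of 0.11 over 10 pairs, against medians of 0.84 for COL1A2 and LUM and 0.97 for DCN.

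Of the dimmer COL2A1 probes, A_04_P016691 and A_04_P016692 had higher means in both operated groups, and neither passed the criterion. A_04_P016691 read 3.18, 3.62, 3.00 and 2.97 in Control, 4.19, 4.33, 2.11 and 4.11 in CoA, and 3.46, 4.90 and 4.37 in Corrected replicates 1, 2 and 4. It was well above background on 9 of the 12 arrays. Its difference of 1.05 in Corrected vs Control (95% interval -0.13 to 2.23, limma adjusted p = 0.64) was the largest of any member in that comparison. The probe did pass there with all 12 arrays, and with only the 2 groups compared, with or without moderated variances. It also passed without CoA replicate 3 or Corrected replicate 1. A_04_P016692 differed by 0.78, whereas A_04_P004466, A_04_P013186 and A_04_P013201 differed by 0.05, -0.19 and -0.06. The other tested chondrocyte marker, CNMD (chondromodulin), was higher in CoA by 1.24 (limma adjusted p = 0.337).

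For Corrected vs Control as a whole, 0 of the 28 member probes passed the 2-fold criterion, against 5.39% of all probes, and 0 had an unadjusted p under 0.05, against 8.35%. Corrected and Control overlapped for every member probe, so that 0 were fully separated, against 8.85% of all. After adjustment in limma 0 of the 28 passed, with a lowest adjusted p of 0.597, and 0 of all 27287 probes passed, while the test without moderation passed 1 of all probes. The log2 FC ran from -0.92 (COL8A1) to 1.05 (COL2A1), with 14 above and 14 below 0, and 52.0% of all probes were above 0. For CoA vs Corrected, 0 member probes passed the 2-fold criterion, against 2.77% of all probes, and 1 (A_04_P029967, higher in CoA) had groups that did not overlap, against 4.24% of all, or 2.33% counting only those higher in CoA. An unadjusted p under 0.05 was reached by 0 member probes, against 4.31% of all probes, and 0 probes passed adjustment in limma or without moderation. Differences ran from -0.56 to 0.49, with 14 on either side of 0, and 52.0% of all probes were above 0.

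Levels of the 6 genes, each by its brightest probe, were compared across the 11 arrays in 15 pairs, and 0 pairs passed 0.05 after adjustment over the 15. The strongest positive relation was between COL5A2 and LUM (Pearson's r = 0.68, permutation p = 0.0266, adjusted p = 0.2; Spearman's rho = 0.64, permutation p = 0.0403, adjusted p = 0.151), and r was 0.72 without the 2 arrays farthest from the median. The strongest negative one was between COL2A1 and COL5A2 (r = -0.78, permutation p = 0.00863, adjusted p = 0.129; rho = -0.66, permutation p = 0.0307, adjusted p = 0.151), with r = -0.84 without such arrays. Over all pairings of their probes, however, r ran from -0.78 to 0.38 for COL2A1 and COL5A2, and from 0.56 to 0.68 for COL5A2 and LUM. Leaving out such arrays also moved COL1A2 and COL2A1 from -0.51 to -0.89 and COL1A2 and COL5A2 from 0.22 to 0.85. It turned COL1A2 and DCN from 0.56 to -0.44 and moved COL8A1 and LUM from -0.58 to 0.02, so that these values rest on few arrays. DCN and LUM had r = 0.24 by their brightest probes, but from 0.13 to 0.89 depending on which probes were paired. No set of arrays scanned together held 6 arrays, so that no value within scans could be given. Among the 952 genes with a tested probe, those whose pattern over the 11 arrays was most like that of LUM were PLA2R1 (r = 0.91), CXADR (0.84) and SLC14A2 (0.84). For DCN they were RYR1 (0.87), RAB11A (0.86) and TIMP3 (0.79), and for COL1A2 VDAC2 (0.87), CSNK2B (0.83) and GTF2A2 (0.82). COL5A2 was most like NLK (0.94), GPSM2 (0.91) and HSPE1 (0.91). COL8A1 was most like CTSE (0.78), PHKA2 (0.77) and P3H4 (0.77), and COL2A1 like ABCB1 (0.94), NPRL3 (0.89) and CA4 (0.88). These are the highest of 952 values for each member over only 11 arrays, and how high such values run by chance was not tested. RYR1 was dim, with means of 4.94 in Control, 4.50 in CoA and 4.21 in Corrected, and was detected on 9 of the 12 arrays.

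Of 11 small leucine-rich proteoglycans listed, 4 could be tested, and 0 passed the 2-fold criterion by their brightest probe in any comparison. Besides DCN and LUM these were biglycan (BGN), at 0.81 in CoA vs Control (SE 0.56), and osteoglycin (OGN), at -0.09 (SE 0.20). In that comparison the 2 tested probes of BGN ran from 0.64 to 0.81, and the 5 of OGN from -0.12 to 0.80. Of 27 collagens listed, only the 4 described here had a tested probe. Among 15 matrix proteases and inhibitors, 7 could be tested and 3 passed in CoA vs Control. TIMP1, an inhibitor of matrix metalloproteinases, was higher by 1.12 (limma adjusted p = 0.287). MMP1, a collagenase that cuts fibrillar collagen, was lower (log2 FC -1.15, limma adjusted p = 0.298), and TIMP4 had a log2 FC of -3.01 (limma adjusted p = 0.258). In Corrected vs Control, TIMP1 (1.05) and MMP1 (-1.36) passed and TIMP4 (-1.01) did not. Of 28 other aortic matrix proteins 4 could be tested, and osteopontin (SPP1) alone passed, at 2.86 in CoA (limma adjusted p = 0.217) and 1.95 in Corrected. Of the TGF-beta and growth factor list, 5 of 22 genes could be tested and 0 passed in any comparison. Among collagen-binding receptors only ITGB1 could be tested, at 0.18 in CoA vs Control, and of 22 genes of collagen processing 0 could be tested.

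Markers of other cell types were also compared between CoA and Control, and 0 of those tested passed adjustment. The mean log2 signal of the 2 tested erythroid genes (HBA and HBB2) was 17.23 to 17.86 in Control and 13.14 to 16.63 in CoA. That of the 5 tested adipocyte genes was 8.77 to 9.73 in Control and 6.03 to 8.73 in CoA. Both lists were therefore lower on every CoA array than on every Control array. The 2-fold criterion was passed by 2 of 2 erythroid genes and 2 of 5 adipocyte genes (ADIPOQ and PPARG), against 8.81% of all probes. The limma adjusted p was 0.227 for HBA, 0.31 for HBB2, 0.274 for ADIPOQ and 0.243 for PPARG. Of the other adipocyte genes, SLC2A4 (-1.51) and LPL (-1.49) were lower in CoA, and LEP (0.17) was not. The 3 tested macrophage genes averaged 9.33 to 10.67 in CoA, where 3 of the 4 arrays lay above every Control array, with SPP1 as the only one that passed. Smooth muscle genes averaged 11.66 to 12.46 in Control and 11.92 to 12.59 in CoA, and 0 of 5 passed. Of the 6 tested skeletal muscle genes, which averaged 5.21 to 6.30 in Control and 5.28 to 7.57 in CoA, TNNC2 (fast troponin C) alone passed, at 3.12. CKM was at 1.26, while RYR1 (-0.45), ATP2A1 (-0.80), TNNI2 (-0.97) and MYH1 (-0.31) were lower in CoA. The 7.57 was CoA replicate 2, and the other CoA arrays (5.28, 5.78 and 5.49) lay within the Control range. CNMD of the chondrocyte list passed at 1.24, as given above. Neither of the 2 tested endothelial genes passed, SELE at 0.83 by its brightest probe and -0.66 by its other, and NOS3 at -0.96. Of 4 T cell genes with a probe 0 were detected on enough arrays to be tested. The fibroblast list could be tested only through DCN, LUM and COL1A2 themselves. The part of the cell types in the difference in LUM was not tested.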

How the data were processed

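Aortic RNA of 12 rabbits was hybridised to 1-colour Agilent rabbit arrays, 1 per rabbit. Spots had been quantified by the authors with Feature Extraction 11.0.1.1, and the deposited processed signal is a background-subtracted intensity not yet normalized between arrays. Median spot and background intensities and spot flags came from the same deposited output. Outlier spots and control spots were left out, spots of a probe were averaged, and log2 values were quantile normalized over the 12 arrays. A probe counted as detected where it was flagged positive and well above background, and those detected on at least 8 of 12 arrays were tested. Symbols were matched by RefSeq accession for 3368 of 43603 probes (7.72%). The other probes, most of them named by Ensembl transcripts, may include further probes of these genes and were not analysed here. The array header and the gene table name different assemblies, so no coordinates are given.

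All 3 groups entered 1 limma model (limma 3.58.1, R 4.3.3) without Corrected replicate 3, the array the study left out. Tests were two-sided, with Benjamini-Hochberg adjustment over all probes tested, and the call was over 2-fold with an unadjusted p under 0.05. Exact permutation tests were run on the brightest probe of each gene, defined by its highest mean over the 11 arrays. Correlations used 100000 permutations. Groups and replicate numbers came from sample titles, and each replicate is a rabbit. The members and lists were chosen with earlier results of these data known. Genes named beside the members were those that passed the criterion in the lists (up to 4 a list) and the 3 most correlated with each member. CNMD, BGN, OGN, ITGB1 and the cell type markers were named after their values were seen. How precise a value is depends on how many arrays there are. The model was tested on simulated data, in which 200 probes were changed. Alternatives covered scaling, background correction (normexp, offset 50), detection filters, arrays, blocks and probe choice. statmod 1.5.0, Python 3.11.15, numpy 2.4.6, pandas 2.3.3, scipy 1.17.1 and matplotlib 3.10.9 were used.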

Additional observations from a re-analysis of the deposited data

Results flagged for a closer look

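Within groups of 4 arrays, 14 of 56 combinations of a member probe and a group had an array far from the other 3 by Dixon's criterion. The nominal rate of about 1 in 20 makes no allowance for an array that stands apart over many probes. The 14 combinations belonged to 2 genes, COL1A2 and COL2A1, and the probes of a gene are not independent. No share over all probes was available to set beside this count. Of the 14, 8 were on CoA replicate 2, which stood apart from the other arrays, as given above. Control replicate 1 was high for the 5 COL1A2 probes A_04_P033292 to A_04_P033296, at 14.23, 14.42, 14.34, 14.30 and 14.26, where the nearest of the other Control arrays read 12.51 to 12.64. CoA replicate 2 was low for 4 of these, at 10.95 for A_04_P033292, 10.74 for A_04_P033293, 10.82 for A_04_P033294 and 10.81 for A_04_P033296. It was also low within the CoA group for the COL1A2 probes A_04_P005106 (16.60), A_04_P005108 (15.11) and A_04_P005109 (15.68). The same array was high for COL2A1 A_04_P013201, at 8.33 against 6.91 on the nearest CoA array. CoA replicate 3 was low for COL2A1 A_04_P016691, at 2.11 against 4.11.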

How the results depend on the processing

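The count of member probes past the 2-fold criterion in CoA vs Control (1) was 4 with 75th percentile scaling, 6 with all 12 arrays and array weights, and 2 with only the 2 groups compared. It was 3 without CoA replicate 2 and Corrected replicate 4, a choice made after seeing the data. Leaving out single arrays gave 1 to 3, with 3 without Control replicate 2 or CoA replicate 3 and 2 without CoA replicate 2 or Corrected replicate 4. In Corrected vs Control (0) it was 1 with all 12 arrays, and 1 with only the 2 groups, with or without moderated variances. It was 7 without CoA replicate 2 and Corrected replicate 4. With scan as a block no count is given, because Corrected replicate 2 was then the only array of its group compared with Control. Leaving out single arrays gave 0 to 6, namely 6 when Corrected replicate 4 was dropped, 2 for Corrected replicate 1, and 1 for Control replicate 4 or CoA replicate 3. In CoA vs Corrected (0) it was 1 (COL1A2) with 75th percentile scaling and 0 to 2 without single arrays, with 2 (both DCN) without Corrected replicate 4.

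Directions of the brightest probes turned as follows. With 75th percentile scaling, which moved the median of all probes from 0.06 to 0.22 in CoA vs Control and from 0.03 to 0.13 in Corrected vs Control, COL1A2 turned to 0.86 and DCN to 0.81 in CoA vs Control, and DCN to 0.23 in Corrected vs Control and 0.59 in CoA vs Corrected. With array weights COL1A2 turned to 0.37 in CoA vs Control. With those weights COL2A1 (-1.09) and COL5A2 (1.12) passed the criterion there. With the median of a gene's probes DCN turned to 0.13 in CoA vs Control and 0.16 in Corrected vs Control, and COL2A1 to 0.26 in Corrected vs Control. For Corrected vs Control, COL2A1 turned to 0.32 with all 12 arrays, 0.07 with Control replicates 3 and 4 as 1 sample, and 0.05 with scan as a random block or scan day as a block. In that comparison DCN turned to 0.61 with scan as a block and 0.00 with scan day, and, without CoA replicate 2 and Corrected replicate 4, to 0.40, with COL1A2 at 0.01. COL1A2 turned to 0.07 there in CoA vs Control. DCN in CoA vs Corrected turned to 0.08 with all 12 arrays and 0.03 with scan as a random block. The cause of these changes was not tested.

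Single arrays left out gave, for COL1A2, -0.16 to 0.14 in CoA vs Control, -0.76 to 0.01 in Corrected vs Control and -0.04 to 0.74 in CoA vs Corrected. They gave -0.25 to 0.22 for COL2A1, -0.07 to 0.79 for COL5A2 and -0.40 to 0.40 for DCN in Corrected vs Control. In CoA vs Corrected they gave -0.11 to 0.70 for COL5A2, -0.36 to 1.15 for COL8A1 and -0.51 to 0.29 for DCN, which was -0.60 with CoA replicate 2 and Corrected replicate 4 both left out. LUM kept its direction in all alternatives, at 0.83 to 1.62 in CoA vs Control and 0.22 to 1.25 in Corrected vs Control.

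Over all probes, the calls in CoA vs Control (2405) were 1020 with normexp and 5210 with array weights, where 11050 probes also passed adjustment, against 0. With scan as a random block 869 passed adjustment, LUM A_04_P011856 among them (adjusted p 0.0467). In Corrected vs Control (1472) they were 584 with normexp, 142 of them higher, and in CoA vs Corrected (755) 129, 50 of them higher. Replicate numbers did not pair the rabbits (correlations of deviations from -0.445 to 0.448). With the replicate number as a block, 1 member probe passed in CoA vs Control, LUM A_04_P011856 at 1.18, and 0 passed in the other comparisons. Slide as a block was not run as such: arrays scanned together took its place, and as a fixed block they could be fitted only for Corrected vs Control. That fit rested on Corrected replicate 2 against Control replicates 1, 2 and 4.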
